A study of Mus musculus with 8 samples.

Results

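The 36 genes described here encode the Fanconi anaemia proteins, the proteins of homologous recombination that act with them, and the kinases and sensors of the DNA damage checkpoint. They were chosen by symbol from a table of 53700 mouse genes, in which all 36 were found. Of these, 34 passed the filter on low counts and were tested, and Fancf and Bard1 did not. Polyadenylated RNA was sequenced from 8 pools of sorted bone marrow cells, each pool made from 5 mice, giving 1 library per combination of 2 cell types with 4 donor genotypes. Stem cells of the blood (haematopoietic stem cells, HSC) were sorted as CD48- CD150+ and multipotent progenitors (MPP) as CD48+ CD150-, both within the LSK gate of lineage-negative, Sca-1-positive, Kit-positive cells. The donor genotypes were Nfat5 +/+ with Vav-Cre (labelled WT), Nfat5 fl/fl with Vav-Cre (N5), IFNAR1-deficient (IFNAR), and Nfat5 fl/fl with Vav-Cre on the IFNAR1-deficient background (DKO). Vav-Cre is a recombinase transgene active in blood-forming cells. All cells were CD45.2 donor cells taken from the marrow of irradiated wild-type CD45.1 hosts at 13 weeks after the graft, so every group had passed through a transplant.

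The Fanconi pathway repairs crosslinks between DNA strands. An anchor, FANCM, and a core complex recognise a stalled replication fork and attach ubiquitin to the FANCI-FANCD2 clamp, nucleases then unhook the crosslink, and the resulting break is repaired by homologous recombination, which needs BRCA1, PALB2 and BRCA2. The kinases ATM and ATR and their targets CHEK2 and CHEK1 hold the cell cycle while repair proceeds. Inherited loss of Fanconi genes causes bone marrow failure, and repair by recombination is used mainly by cells that are copying or have copied their DNA.

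Library totals ran from 28871693 to 47205950 counts. Levels are CPM, the count of a gene scaled to the size of its library, after TMM scaling, and a library in which a gene had 3 counts or fewer was taken to be at the floor, which corresponds to 0.0633 to 0.105 CPM and covers counting error only. All 10 HSC marker genes, among them Slamf1 of the sorting marker CD150, lay higher in HSC and all 6 MPP marker genes, among them Cd48, lay lower, so the sort labels were matched by these markers. The genotype labels were not matched by counts of the genes they name. Over both cell types, Nfat5 ranged from 0.193 to 33.2 CPM in libraries labelled intact for it. In those labelled deficient it ranged from 7.69 to 35.5 CPM. Ifnar1 ranged from 37.2 to 126 CPM and from 35.1 to 125 CPM, in the same order. Counts per gene do not separate exons, so an allele that lost only part of a gene could still be read. These levels therefore cannot check the labels, and genotypes are named by their labels throughout. Each group had 1 library, and the p-values measure only the spread between these libraries. In bulk pools, fewer cells of a type and less RNA per cell cannot be told apart.

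In HSC the genes as a group lay below their MPP levels, with 7 of 34 tested genes lower in every HSC library than in any MPP library and 0 of 34 higher in this sense. These 7 were Fanci and Fancd2 of the clamp, Brca1 and Brip1 of the BRCA group, and also Xrcc2, Rad54l and Wrn. Over all 12132 genes tested, 5.65% lay lower in HSC without overlap and 4.73% higher. The fitted log2 difference was below 0 for 25 of the 34 genes, with a median of -0.58, beside 6773 of 12132 genes below 0 and a median of -0.10 over all genes. Without the HSC library labelled N5 the median of the members measured was -0.98, and without the MPP library labelled N5 it was -0.97. With genotype as the block, a library whose partner is left out carries no information on cell type. Leaving out the HSC or the MPP library of a label is therefore nearly the same fit, here and for the genes below. The summed level of the 36 genes was 1052, 1291, 1296 and 1182 CPM in HSC under the labels WT, N5, IFNAR and DKO, the order of all values below. In MPP it was 1543, 1487, 1577 and 1764 CPM. The summed levels of HSC and MPP did not overlap.

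No member passed edgeR's quasi-likelihood test with Benjamini-Hochberg adjustment (0 of 34), where 2 of 12132 genes did (0.0165%). At an unadjusted p under 0.05, edgeR had 5 members lower in HSC (Fanci, Brca1, Rad51b, Rad54l and Wrn) beside 5.65% of all genes, and 1 higher (Slx4) beside 4.45%. DESeq2 called 6 members lower, these 5 and Blm, where it called 8.61% of all genes lower, and called Slx4 higher, where it called 6.89% higher. With limma-voom 0 of 34 members were called, beside 1.29% of all genes. The levels below are therefore descriptions of these 8 libraries, and "lower" or "higher" refers to them alone.

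**Figure D1:**
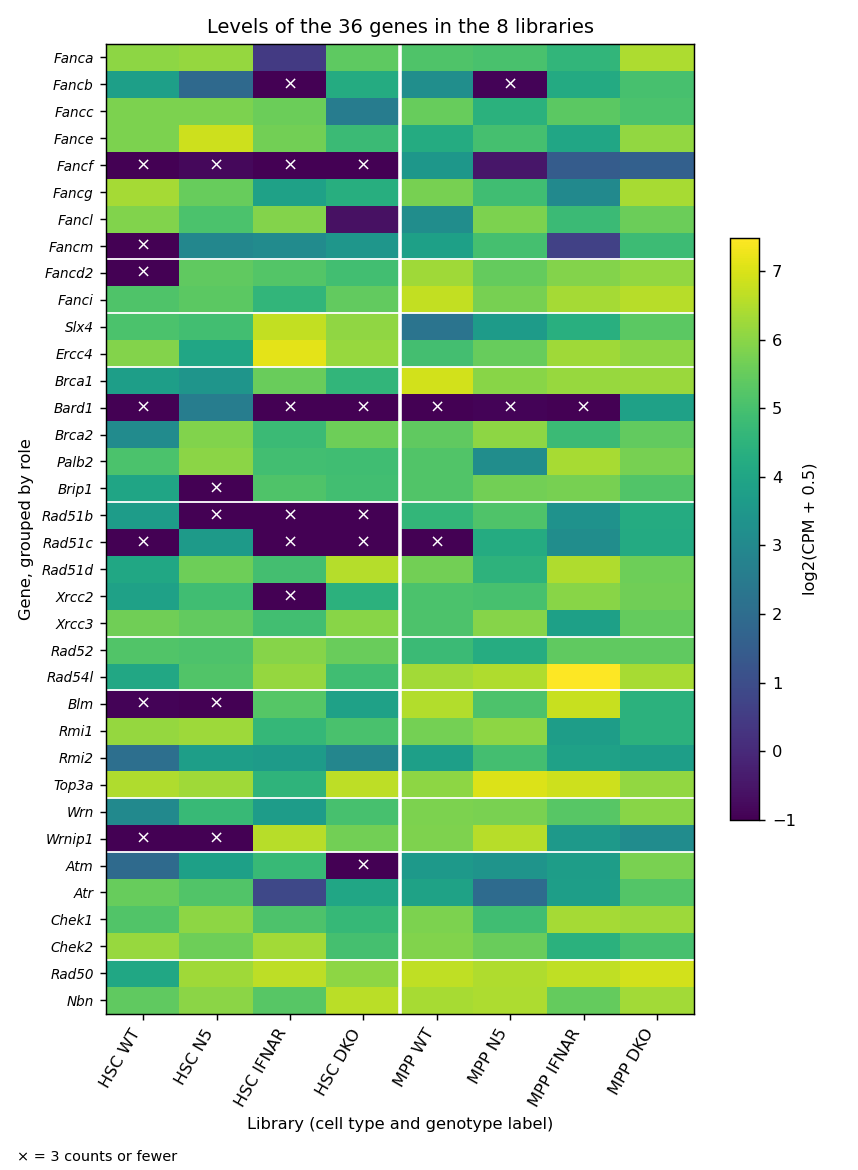
Levels of the 36 genes (rows, grouped by role and separated by white lines, from the core complex at the top to RAD50 and NBN at the bottom) in the 8 libraries (columns), as log2 of CPM plus 0.5. Crosses mark values at 3 counts or fewer, of which 23 lie in the HSC columns and 5 in the MPP columns.

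Both genes of the clamp separated the cell types. Fanci (ENSMUSG00000039187.17) encodes a subunit that receives ubiquitin from the core complex. Its level was 34.9, 40.3, 23.2 and 43.3 CPM in HSC and 104, 52.8, 80.2 and 94.3 CPM in MPP. Every HSC library lay below every MPP library, and the means were 35.4 ± 8.86 against 82.8 ± 22.2 CPM (SD, n = 4 libraries per cell type). Its log2 difference of HSC minus MPP was -1.22 (SE 0.37), with an edgeR adjusted p = 0.389. Fancd2 (ENSMUSG00000034023.17), its partner in the clamp, had 0, 41.7, 36.9 and 29.98 CPM in HSC and 77.1, 43.9, 59.2 and 68.5 CPM in MPP. The HSC library labelled WT held 0 counts of Fancd2, which allows up to 0.0869 CPM, while the other HSC libraries held 1278 to 1446 counts and the highest of them lay close under the lowest MPP library. The edgeR adjusted p of Fancd2 was 0.888 (log2 difference -1.67, SE 1.93). The difference was -0.65 without the HSC or the MPP library labelled WT, and -2.52 without either library labelled N5.

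Within the BRCA group, Brca1 and Brip1 separated the cell types. Brca1 (ENSMUSG00000017146.13), a ubiquitin ligase that promotes the resection of broken ends, had 13.1, 10.3, 46.5 and 23.6 CPM in HSC and 119, 61.9, 72.2 and 74.1 CPM in MPP. Its means were 23.4 ± 16.4 and 81.9 ± 25.5 CPM (SD, n = 4), 3.502-fold higher in MPP, and the highest HSC library, labelled IFNAR, stayed under the lowest MPP library. The log2 difference was -2.02 (SE 0.56, edgeR adjusted p = 0.354). Brip1 (ENSMUSG00000034329.17), a helicase that binds BRCA1, had 15.2, 0, 35.3 and 29.7 CPM in HSC and 35.5, 50.1, 52.7 and 36.1 CPM in MPP. The HSC library labelled IFNAR and the MPP library labelled WT nearly touched, and the groups overlapped when levels were scaled by DESeq2 size factors or by library totals alone. No count of Brip1 was found in the HSC library labelled N5, which allows up to 0.0979 CPM (log2 difference -1.71, SE 1.94, edgeR adjusted p = 0.888). Without the HSC or the MPP library labelled N5 the difference of Brip1 was -0.70. Brca2, a mediator of recombination, and Palb2, which links it to BRCA1, overlapped between the cell types, at 8.11 to 58.5 CPM against 26.8 to 65.2 CPM for Brca2 and 29.1 to 63.4 CPM against 8.46 to 83.2 CPM for Palb2.

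Bard1 (ENSMUSG00000026196.8), the obligate partner of BRCA1, was read in few libraries. It had 0, 171, 0 and 0 counts in HSC and 0, 1, 0 and 499 counts in MPP, so 6 of 8 libraries were at the floor and a single library of each cell type, the HSC library labelled N5 and the MPP library labelled DKO, carried nearly all its reads. The level of Bard1 in these was 5.58 and 14.1 CPM.

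Rad54l and Wrn separated the cell types as well. Rad54l (ENSMUSG00000028702.16), a motor protein of homologous recombination, had 16.6, 35.4, 69.8 and 28.7 CPM in HSC and 78.4, 88.2, 178 and 82.2 CPM in MPP. Its libraries labelled IFNAR were the highest of each cell type, and in each genotype the MPP library exceeded its HSC counterpart. Means were 37.6 ± 22.8 and 107 ± 47.9 CPM, with a log2 difference of -1.60 (SE 0.29) and an edgeR adjusted p = 0.211, the smallest of the 34 genes. Wrn (ENSMUSG00000031583.14), a RecQ-family helicase and exonuclease, had 7.68, 25.5, 12.3 and 31.7 CPM in HSC and 55.6, 54.3, 38.0 and 63.1 CPM in MPP. The highest HSC library, labelled DKO, lay under the lowest MPP library, labelled IFNAR, and the log2 difference was -1.63 (SE 0.57, edgeR adjusted p = 0.431). Rad52, which anneals single strands, leaned the other way at 35.99, 33.8, 61.0 and 45.9 CPM in HSC and 27.0, 18.5, 42.5 and 42.3 CPM in MPP, higher in HSC in 4 of 4 genotype pairs but overlapping between the groups.

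**Figure D2:**
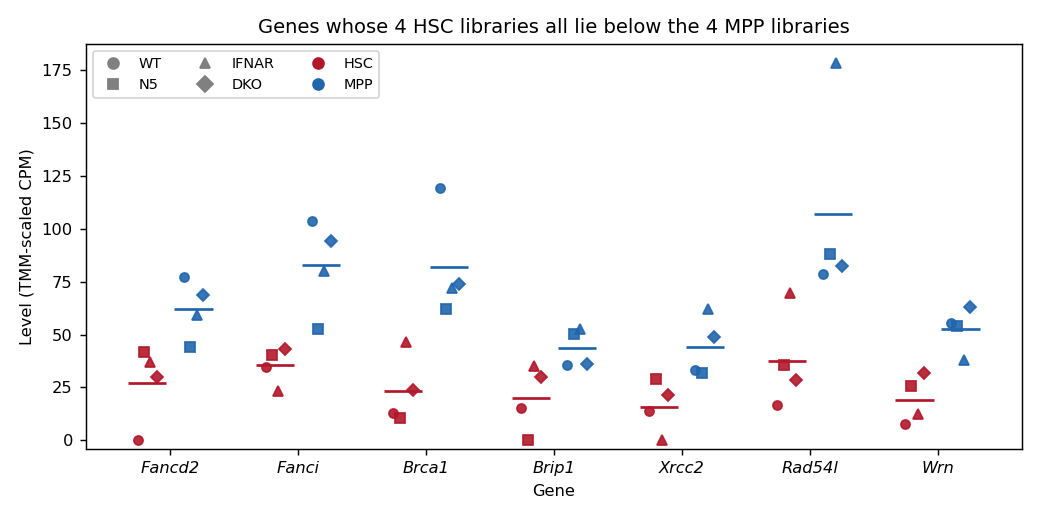
CPM after TMM scaling (vertical axis, linear) of the 7 genes whose HSC libraries (red) all lay below their MPP libraries (blue). Each symbol is 1 library, its shape gives the genotype label and the horizontal bars are means of 4 libraries; the gap is narrowest for Brip1.

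Of the genes Rad51b, Rad51c, Rad51d, Xrcc2 and Xrcc3, whose products form small complexes that assist recombination, Rad51b, Rad51c and Xrcc2 were patchy in HSC. Xrcc2 (ENSMUSG00000028933.12) had 13.9, 28.8, 0 and 21.2 CPM in HSC and 33.1, 31.7, 62.0 and 49.0 CPM in MPP, without overlap and with 0 counts in the HSC library labelled IFNAR (log2 difference -1.90, SE 2.02, edgeR adjusted p = 0.878). That difference was -0.87 without this library and -0.88 without the MPP library of the same label. Rad51b (ENSMUSG00000059060.16) had 12.4, 0, 0 and 0 CPM in HSC and 24.0, 34.8, 9.60 and 18.1 CPM in MPP. Only the HSC library labelled WT held Rad51b reads, 429 counts, and that library exceeded the lowest MPP library, labelled IFNAR, so the groups overlapped. Rad51b was lower in HSC in 4 of 4 pairs (means 3.11 ± 6.22 and 21.6 ± 10.6 CPM, SD, n = 4; edgeR adjusted p = 0.436). Rad51c (ENSMUSG00000007646.14) had 0, 11.9, 0 and 0 CPM in HSC and 0, 18.2, 8.36 and 17.6 CPM in MPP, so in each genotype pair with a reading the MPP library was the higher, and both libraries labelled WT stood at 0. Rad51d and Xrcc3 were read in all 8 libraries and overlapped, at 15.9 to 91.5 CPM against 22.1 to 87.4 CPM for Rad51d and 29.5 to 62.5 CPM against 13.6 to 61.1 CPM for Xrcc3.

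The BLM dissolvasome separates joined chromosomes after recombination. Its helicase gene Blm (ENSMUSG00000030528.13) had 0.0290, 0, 37.2 and 14.1 CPM in HSC, with 1 count in the library labelled WT and 0 in that labelled N5, and 89.6, 33.8, 108 and 21.6 CPM in MPP. Each HSC library lay under the MPP library of the same genotype, while the MPP library labelled DKO was lower than the HSC library labelled IFNAR (means 12.8 ± 17.6 and 63.3 ± 42.1 CPM, SD, n = 4; edgeR adjusted p = 0.717). The fitted log2 difference of Blm, -5.55, ran from -9.23 to -2.66 without single libraries, each of which moved it by over 1.5 times. Rmi2, a stabilising subunit, missed a full separation narrowly, since its highest HSC library had 13.0 CPM and its lowest MPP library 12.9 CPM. Rmi1, the other OB-fold subunit, was higher in HSC in 4 of 4 pairs at 69.7, 75.0, 24.9 and 32.4 CPM against 52.2, 65.5, 12.8 and 21.3 CPM, and Top3a, the topoisomerase, overlapped at 22.3 to 99.2 CPM against 64.8 to 131 CPM. Wrnip1 (ENSMUSG00000021400.9), an ATPase that binds WRN, had 0, 0, 95.5 and 50.8 CPM in HSC and 56.6, 94.3, 11.3 and 8.30 CPM in MPP. In HSC the libraries labelled IFNAR and DKO held all its reads, and in MPP these same labels were the low ones.

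In the Fanconi core complex and its anchor, the fitted log2 difference was below 0 for 5 of 7 tested genes and above 0 for 2. Its median was -0.13, beside -0.10 over all genes. Means went against the fitted sign for Fancc (41.1 CPM in HSC, 35.1 CPM in MPP), Fancl (37.9 and 34.5 CPM) and Fancg (39.6 and 42.9 CPM). Those of Fanca were 44.3 and 44.2 CPM. The summed level of the group, Fancf included, overlapped at 123 to 329 CPM in HSC and 136 to 379 CPM in MPP. No tested gene of this group separated the cell types, while Fancf, which was not tested, did. Fance (ENSMUSG00000007570.17), which bridges the core complex to FANCD2, had the smallest p of these. It had 55.1, 115, 50.4 and 27.1 CPM in HSC and 18.1, 31.0, 15.8 and 68.2 CPM in MPP, higher in HSC in 3 of 4 pairs (log2 difference 1.05, SE 0.72, edgeR adjusted p = 0.748). Without either library labelled DKO its difference was 1.72. Fancm (ENSMUSG00000055884.9), the DNA translocase that anchors the complex, had 0, 7.05, 7.97 and 10.4 CPM in HSC and 13.5, 31.1, 1.05 and 27.7 CPM in MPP, lower in HSC in 3 of 4 pairs. Fancb (ENSMUSG00000047757.18), a core subunit that works with FANCL, had 13.4, 3.20, 0 and 18.3 CPM in HSC and 8.74, 0.0351, 17.7 and 31.7 CPM in MPP, so each cell type had a library at the floor under a different genotype label. Fancf (ENSMUSG00000092118.2), an adaptor of the complex, had 0, 2, 0 and 0 counts in HSC and 322, 6, 83 and 89 counts in MPP. All 4 HSC libraries of Fancf were at the floor and 0 of 4 MPP libraries were, although the MPP library labelled N5 held only 6 counts, and the gene was too low to be tested. Fanca, Fancc, Fancg and Fancl, the last being the ubiquitin ligase itself, were above the floor in all 8 libraries and overlapped. In HSC, Fanca had 64.8, 69.8, 0.843 and 41.6 CPM and Fancl 58.3, 33.3, 59.7 and 0.148 CPM, so the library labelled IFNAR was low for Fanca and that labelled DKO for Fancl. Fancc had 56.0, 55.5, 47.7 and 5.36 CPM there, again with the low value in the library labelled DKO, and Fancg ran from 14.0 to 79.6 CPM in HSC and from 7.57 to 82.4 CPM in MPP.

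Both genes of the nuclease group had a log2 difference above 0, though that of Ercc4 was smaller than its SE. Slx4 (ENSMUSG00000039738.17), the scaffold that gathers the unhooking nucleases, had 33.0, 29.5, 104 and 66.8 CPM in HSC and 4.33, 12.0, 19.97 and 40.0 CPM in MPP. It was higher in HSC in 4 of 4 pairs, with means of 58.2 ± 34.6 and 19.1 ± 15.3 CPM (SD, n = 4), a log2 difference of 1.83 (SE 0.59) and an edgeR adjusted p = 0.407. The groups overlapped through the MPP library labelled DKO, which exceeded the HSC libraries labelled WT and N5. Ercc4, which encodes the endonuclease XPF, ran from 15.9 to 141 CPM in HSC and from 30.4 to 76.6 CPM in MPP. Its log2 difference was 0.15 (SE 0.53, edgeR adjusted p = 0.977).

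Checkpoint kinase genes were split, with 2 of 4 lower in HSC and a median log2 difference of -0.22. Chek2 (ENSMUSG00000029521.8), the effector of ATM, had 70.9, 48.4, 78.4 and 31.1 CPM in HSC and 57.9, 46.3, 20.7 and 31.5 CPM in MPP, and the groups overlapped (log2 difference 0.54, SE 0.50, edgeR adjusted p = 0.840). The difference was 0.12 without the HSC and 0.11 without the MPP library labelled IFNAR. Chek1, the effector of ATR, lay the other way at 35.6, 65.6, 34.5 and 25.0 CPM in HSC and 55.4, 29.0, 80.0 and 75.7 CPM in MPP, lower in HSC in 3 of 4 pairs. Atm (ENSMUSG00000034218.17) had 3.30, 13.5, 25.9 and 0 CPM in HSC and 11.4, 10.04, 12.6 and 54.1 CPM in MPP, so the genotype label with 0 counts in HSC, DKO, was the highest in MPP. Atr overlapped at 1.303 to 45.01 CPM in HSC and 3.41 to 36.7 CPM in MPP.

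The break sensor genes were read in every library. Rad50 (ENSMUSG00000020380.17), which tethers broken ends in a complex with NBN and MRE11, had 16.0, 77.2, 98.8 and 64.8 CPM in HSC and 101.2, 88.1, 100.4 and 119.5 CPM in MPP. Each HSC library lay under its MPP counterpart, by a small margin in the libraries labelled IFNAR, and the groups overlapped (log2 difference -0.90, SE 0.52, edgeR adjusted p = 0.680). It was -0.37 without either library labelled WT. Nbn had 41.6, 63.8, 38.6 and 95.9 CPM in HSC and 82.4, 86.5, 43.6 and 79.3 CPM in MPP, overlapping.

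Of the 7 genes lower in HSC without overlap, 4 were matched to a promoter in RefSeq (mouse build GRCm38.p6) and are shown. Fancd2, Xrcc2 and Wrn were not matched there, and 28 of the 36 members were. The 7 genes were picked from these same data, so their sequences are given as a description only. Each line gives the 150 bases before the annotated start, 5′ to 3′ on the gene's strand, with capitals marking the CCAAT box or its reverse complement ATTGG.
Brca1 (chr11:101551956-101552105, minus strand): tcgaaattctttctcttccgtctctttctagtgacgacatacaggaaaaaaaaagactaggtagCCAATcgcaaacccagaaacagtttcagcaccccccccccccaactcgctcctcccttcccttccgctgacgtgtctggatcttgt
Brip1 (chr11:86201194-86201343, minus strand): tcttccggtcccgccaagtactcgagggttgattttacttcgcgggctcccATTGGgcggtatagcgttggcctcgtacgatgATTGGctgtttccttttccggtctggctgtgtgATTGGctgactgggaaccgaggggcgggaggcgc
Rad54l (chr4:116123691-116123840, minus strand): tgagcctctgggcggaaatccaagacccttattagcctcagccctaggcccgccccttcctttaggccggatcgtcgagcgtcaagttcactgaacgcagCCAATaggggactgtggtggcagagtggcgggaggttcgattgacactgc
Fanci (chr7:79392188-79392337, plus strand): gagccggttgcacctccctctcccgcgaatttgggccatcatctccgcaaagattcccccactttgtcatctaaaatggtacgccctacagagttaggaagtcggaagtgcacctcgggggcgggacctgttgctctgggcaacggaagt
The box closest to the start began 86 bases before it in Brca1 and 50 bases before it in Rad54l, while Brip1 held 3 in reverse orientation, 99, 67 and 34 bases before its start, and Fanci held none in this window. In the longer windows of the table, 250 bases before to 50 after each start and read on both strands, CCAAT was found in 19 of 28 members with a promoter and in 37.9% of 27025 promoters. The E2F letters TTTGGCGC were in 0 of 28 members and 0.537% of all promoters, and TTTCGCGC in 1 member, Rad51c, and 0.318%. The cell cycle element TTTGAA was in 1 member, Bard1, and 18.1%. These are matches of letters only, and members that lay higher in HSC, such as Slx4, held the CCAAT letters too.

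Reads of some members may be shared with a gene on the opposite strand, because no source used here gives the strand setting of the counting, and such reads could not be told apart. In a mouse annotation of the earlier build, exons of Fanci overlap those of Polg over 921 bases, exons of Rad54l those of Lrrc41 over 1184 bases, exons of Fancd2 those of Fancd2os over 257 bases, and exons of Rmi1 those of Hnrnpk over 330 bases. Exons of Fanca, Fancc, Fancf, Fancl, Wrnip1 and Xrcc3 also overlap protein-coding genes on the other strand. Lrrc41 levels were 217 ± 51.2 CPM for HSC and 164 ± 40.04 CPM for MPP, opposite in order to Rad54l, Fancd2os had 0 counts in all 8 libraries, and Polg had 47.5 ± 50.7 CPM against 79.8 ± 26.8 CPM (SD, n = 4). Hnrnpk had 1416 ± 132 CPM against 1514 ± 128 CPM.

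Values at the floor were concentrated in HSC. Of 144 gene values in each cell type, 23 were at the floor in HSC and 5 in MPP, at 7, 5, 6 and 5 per HSC library and 2, 2, 1 and 0 per MPP library. There were 24 genes that never touched the floor. The other 12 did so in HSC, and 3 of them (Fancb, Bard1 and Rad51c) also in MPP. For 5 genes (Fancm, Fancd2, Brip1, Xrcc2 and Atm) exactly 1 library of 8 was at the floor, in each case an HSC library. The absence was abrupt, since Xrcc2 held 479 to 1005 counts in its other HSC libraries, Brip1 525 to 1408, Fancm 216 to 493 and Atm 114 to 1012. After thinning every library to the smallest total, 24 HSC values and 5 MPP values were at the floor.

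Other genes with as many reads behaved in part alike. Among the 34 tested members, 11.8% of HSC values and 1.47% of MPP values were at the floor, and among 7045 tested genes with means in the members' range of 7.01 to 83.3 CPM these shares were 8.67% and 4.77%. The median SD of log2 levels was 1.14 in HSC and 0.71 in MPP for members, and 0.95 and 0.68 for those genes. HSC libraries varied more than MPP libraries for 22 of 34 members (64.7%) and for 66.9% of the comparison genes, so a larger spread in HSC was shared with genes at these levels.

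**Figure D3:**
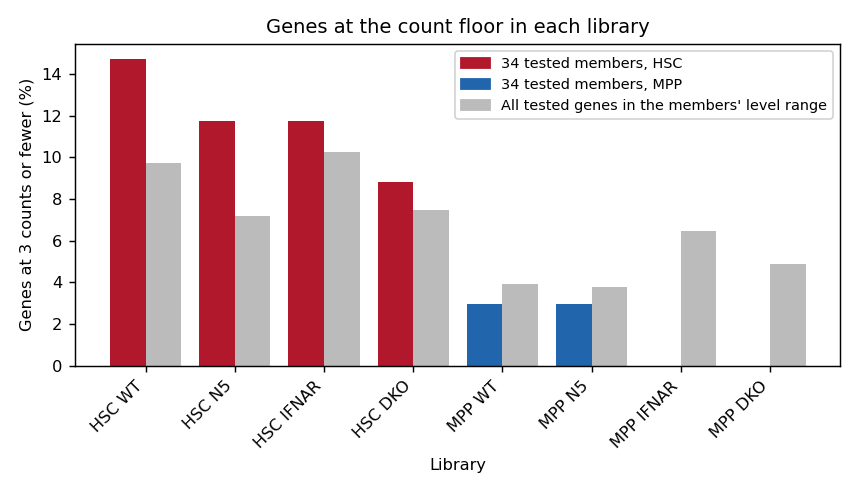
Percent of genes at 3 counts or fewer in each library, for the 34 tested members (red in HSC, blue in MPP) and for the 7045 tested genes in the members' range of mean CPM (grey). Members exceed the grey bar in all 4 HSC libraries and lie under it in all 4 MPP libraries, but each member bar rests on few genes. Under the labels WT, N5, IFNAR and DKO, 5, 4, 4 and 3 tested members were at the floor in HSC. In MPP these numbers were 1, 1, 0 and 0.

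Neighbouring repair pathways differed in how far they followed the members. In the lists here and below, genes are counted as lower or higher by the sign of the fitted log2 difference. Other recombination genes had the lowest median of these repair lists, -1.03, with 21 of 24 tested genes lower. EdgeR called 0 genes in the recombination, crosslink and fork, and checkpoint lists. At an unadjusted p under 0.05 it had 3, 3 and 4 genes lower in that order, beside 5.65% of all genes. DESeq2 called 4 lower in each, beside 8.61% of all genes, and 1 crosslink and fork gene higher, beside 6.89%. Fignl1, an ATPase of homologous recombination, stood at 71.1 ± 25.0 CPM for HSC and 161 ± 44.6 CPM for MPP, and Rad51ap1 had 5.27 ± 6.63 and 82.4 ± 28.0 CPM (SD, n = 4), both without overlap. Other crosslink and fork genes were lower for 17 of 24 with a median of -0.44, among them Ube2t, the ubiquitin-conjugating enzyme of FANCL, at 16.6 ± 7.78 and 36.7 ± 8.20 CPM and Uhrf1, a reader of hemimethylated DNA, at 274 ± 38.6 and 437 ± 79.3 CPM, again without overlap. Other checkpoint genes were lower for 17 of 24 with a median of -0.51. They included Tipin, a fork protection factor, at 86.0 ± 28.2 and 210.1 ± 21.0 CPM, H2ax, the histone variant marked at breaks, at 121 ± 14.9 and 228 ± 29.3 CPM, and the ATR activator Etaa1 at 16.4 ± 14.98 and 62.6 ± 16.2 CPM.

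End joining genes, which repair breaks without a copied template, were lower for 10 of 17 with a median of -0.20, and 0 of 17 separated the cell types. Aldehyde detoxification genes, which remove a source of crosslinks, were lower in HSC for 2 of 6 with a median of 0.19. This was the only one of these lists with genes higher in HSC without overlap, 2 of 6 beside 4.73% of all genes. Aldh1a1 had 355, 338, 112 and 227 CPM in HSC and 15.8, 37.3, 36.3 and 12.7 CPM in MPP, and Aldh2 had 638, 822, 732 and 730.0 and 593, 579.6, 489.6 and 599.9 CPM. The edgeR adjusted p was 0.189 for Aldh1a1 (log2 difference 3.39) and 0.408 for Aldh2 (log2 difference 0.37). Adh5 and Aldh9a1 leaned the other way, with log2 differences of -0.27 and -0.34. Those of Aldh3a2 and Esd were 0.66 and 0.0028, and these last 4 genes overlapped between the cell types.

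Proliferation genes also lay lower in HSC. S phase genes were lower in HSC for 24 of 25, with a median of -0.82 and 10 without overlap, and their summed level was 4678 to 5757 CPM in HSC and 7695 to 9004 CPM in MPP. Mitosis genes were lower for 24 of 24, with a median of -1.08 and 11 without overlap, at 1893 to 2126 CPM against 3789 to 4705 CPM. The licensing helicase gene Mcm7 had 451 ± 21.2 and 862 ± 49.0 CPM, Mcm6 709 ± 94.4 and 1206 ± 265 CPM, and Mcm3 542 ± 96.5 and 888 ± 158 CPM. Among mitosis genes, Top2a had 206 ± 51.9 and 672 ± 119 CPM, Ect2 46.9 ± 7.07 and 158 ± 41.3 CPM, Birc5 79.1 ± 9.79 and 153 ± 28.0 CPM, and Mki67 79.1 ± 34.1 and 165 ± 48.4 CPM. The E2F family and its partners were lower for 9 of 15 with a median of -0.36, and Tfdp1 (196 ± 43.9 and 302 ± 24.8 CPM) and the mitotic factor Foxm1 (4.57 ± 7.01 and 43.2 ± 16.7 CPM) separated without overlap. The activator genes E2f1, E2f2 and E2f3, chosen after their values were seen, lay the other way with log2 differences of 1.71, 1.33 and 0.64, and E2f1 was higher in HSC in 4 of 4 pairs at 15.6 ± 7.41 and 4.69 ± 2.14 CPM (edgeR adjusted p = 0.653). In these 3 lists edgeR called 0 genes. At an unadjusted p under 0.05 it had 13 S phase, 16 mitosis and 1 E2F family gene lower, and DESeq2 called 13, 15 and 2 lower and, in the E2F family, 3 higher. The part of proliferation in the members' levels was not tested.

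Genes used as markers of other cell types also differed between the gates. Summed neutrophil markers (7 of 8 tested) lay at 578 to 642 CPM in HSC and 781 to 2481 CPM in MPP, although 4 of the 7 tested genes were higher in HSC and the sum turned on Elane (37.7 ± 44.6 CPM against 935 ± 427 CPM) and Prtn3 (167 ± 43.4 CPM against 457 ± 149 CPM). Sums lay, for megakaryocyte markers (6 of 8), at 417 to 887 CPM and 45.6 to 166 CPM with Gp6 at 0, for T and NK cell markers (1 of 8) at 0 to 40.7 CPM and 40.9 to 84.5 CPM with Cd3d, Cd3e and Cd3g at 0, and for stromal and endothelial markers (2 of 7) at 46.7 to 125 CPM and 126 to 239 CPM with Cdh5, Lepr and Col1a1 at 0. Erythroid (8 of 9), B cell (4 of 8) and monocyte and macrophage (5 of 8) sums overlapped between HSC and MPP. Whether the reads of these markers came from other cells or from HSC and MPP themselves was not tested. The part of such markers in the members' levels was not tested either.

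**Figure D4:**
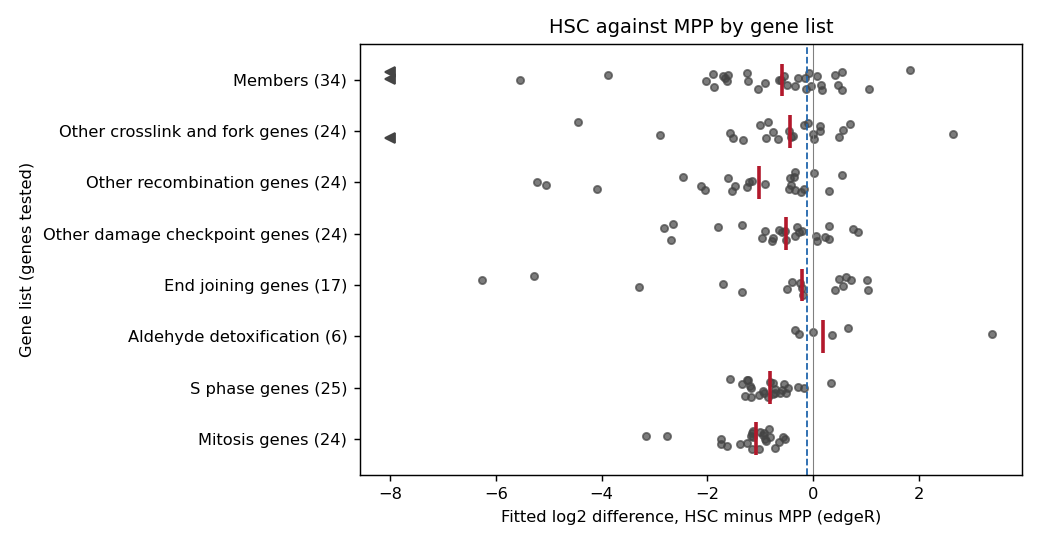
Fitted log2 difference of HSC minus MPP (horizontal axis) for the tested genes of the members and of 7 other lists, 1 point per gene. Red bars are list medians, the dashed line is the median of all 12132 genes (-0.10), and arrows at the left edge stand for genes below -8; the medians are -0.58 for members, -0.82 for S phase and -1.08 for mitosis.

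Loss of Nfat5 (labels N5 and DKO) was set against intact Nfat5 (labels WT and IFNAR) within each cell type. In edgeR 0 of 34 members were called, as were 0% of all genes. At an unadjusted p under 0.05 there were 0 members in either direction, beside 1.38% of genes lower and 1.41% higher. DESeq2 called 0 members, beside 0.684% of all genes lower and 0.684% higher, and limma-voom 0 members and 0% of genes. Fancc, Rad52 and Blm were lower in all 4 pairs (3 of 34, beside 5.35% of all genes). The HSC pair labelled WT and N5 had 1 and 0 counts of Blm, both at the floor, and so gives it no direction. That pair was nearly equal for Fancc (56.0 and 55.5 CPM), as was the MPP pair labelled IFNAR and DKO for Rad52 (42.5 and 42.3 CPM). Fancm, Brca2, Rmi1 and Nbn were higher in all 4 pairs (4 of 34, beside 5.79%), Nbn by little in the MPP pair labelled WT and N5 (82.4 and 86.5 CPM). Brca2 had 8.11, 58.5, 26.9 and 47.9 CPM in HSC and 42.0, 65.2, 26.8 and 43.5 CPM in MPP, so within HSC the libraries labelled N5 and DKO were the highest.

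Loss of Ifnar1 (labels IFNAR and DKO) was set against intact Ifnar1 (labels WT and N5) in the same way. In edgeR 0 of 34 members were called (0% of all genes). At an unadjusted p under 0.05 edgeR had Rmi1 lower, beside 2.02% of all genes, and Slx4 and Ercc4 higher, beside 1.26%. Rmi1 was the 1 member lower in all 4 pairs (6.16% of all genes), and Slx4, Ercc4, Rad51d and Rad52 were the 4 members higher in all 4 pairs (5.90%). Rmi1 had 52.2 to 75.0 CPM in the libraries labelled intact for Ifnar1 and 12.8 to 32.4 CPM in those labelled deficient, without overlap even across cell types (log2 difference -1.58 for loss minus intact, edgeR adjusted p = 1). Slx4 differed the other way in each pair (log2 difference 1.69, edgeR adjusted p = 1), as did Ercc4 (log2 difference 1.20, edgeR adjusted p = 1).

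DESeq2 called Rmi1 lower with Ifnar1 loss (beside 1.27% of all genes) and Slx4 and Blm higher (beside 0.651%), and limma-voom called 0 members (beside 0.00824%). In HSC, Blm was at the floor in the libraries labelled WT and N5 and at 37.2 and 14.1 CPM in those labelled IFNAR and DKO, whereas in MPP it was higher in the library labelled IFNAR than WT and lower in DKO than N5. The exons of Rmi1 overlap those of Hnrnpk, which is read at a far higher level (1275 to 1593 CPM in HSC and 1355 to 1664 CPM in MPP). Whether shared reads entered the Rmi1 counts was not tested. Tests of whether either loss differed between HSC and MPP called 0 of 34 members in edgeR, and 0% of all genes for both. At an unadjusted p under 0.05 they had 1 member for Nfat5 loss, Rad51d (beside 4.42% of all genes), and 2 for Ifnar1 loss, Blm and Wrnip1 (beside 4.82%).

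**Figure D5:**
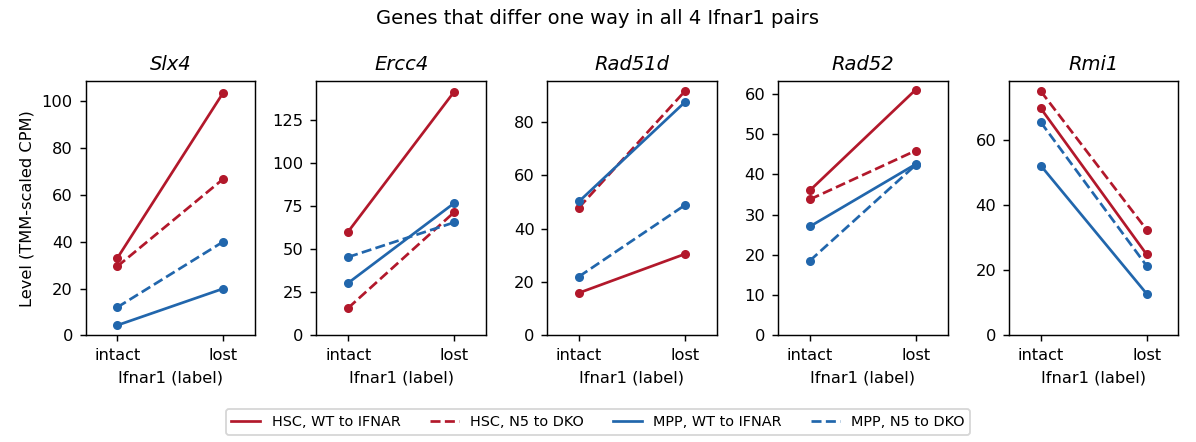
CPM after TMM scaling (vertical axes, each from 0) of the 5 genes that differed in the same direction in all 4 pairs of libraries labelled intact or lost for Ifnar1. Red lines are HSC pairs, blue lines MPP pairs, solid lines WT to IFNAR and dashed lines N5 to DKO; 4 genes lie higher and Rmi1 lower in the libraries labelled lost.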

How the data were processed

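Polyadenylated RNA from sorted cells was extracted with a micro-scale column kit and amplified by Smart-Seq2, which copies whole transcripts by PCR without molecular identifiers, per the labels' protocols. The authors deposited whole-number counts per gene for 8 libraries without normalization. STAR 2.7.8a, RSEM 1.3.0 and build GRCm39 are named in the submitters' processing notes; the sources used here give neither the annotation release nor the counting strand. Intervals and floors cover counting error only.

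In R 4.3.3, edgeR 4.0.16 (glmQLFit and glmQLFTest) was run on the 12132 genes that passed filterByExpr by cell type (99.5% of counts), with TMM factors and Benjamini-Hochberg adjustment at 0.05 over all of them. The HSC and MPP comparison took genotype as its block (3 residual degrees of freedom), and Nfat5 loss and Ifnar1 loss with cell type and both losses as terms (4 residual degrees of freedom). Since no group has a replicate, the spread is estimated from interactions that these models omit. Levels are CPM after TMM scaling, with 0.5 CPM added on log scales. The SE of a log2 difference was calculated back from the quasi-likelihood test. It is the absolute difference divided by the square root of the test's F value, not a standard error given by the fit. The alternatives were DESeq2 1.42.0, limma-voom (limma 3.58.1), other scalings, filters and floors, thinning, the bias-adjusted quasi-likelihood method, models without a term, and leaving out each library. In the fit of HSC against MPP, leaving out a library also takes its genotype partner out of the comparison.

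Members and lists were chosen with earlier results of these data known. Values in every library are given for members without overlap between HSC and MPP, for members at the floor in 1 library and at 10 CPM or more in another of the same cell type, and for the smallest p of each role; a few further members and overlapping neighbours were chosen after their values were seen. From other lists, up to 4 genes without overlap are named. Promoters and exon overlaps come from the earlier mouse build GRCm38 and were matched by symbol. The test was run on simulated counts before use. Those counts held large changes, a small spread and no abrupt absences, unlike these libraries. That run therefore does not show how the test behaves here.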

Additional observations from a re-analysis of the deposited data

Results flagged for a closer look

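In groups of 4 libraries, each of a different genotype label, a library far from the other 3 was sought for every member in each cell type (Dixon's ratio above its critical value for 4 samples, on log2 of CPM plus 0.5). Of 72 groups, 16 held such a library, 11 in HSC and 5 in MPP. Chance gives about 1 in 20 groups for independent values from a normal distribution, which values at the floor are not. Among tested genes in the members' range of mean CPM the share was 11.7% in HSC and 9.2% in MPP, beside 26.5% and 11.8% of the 34 tested members. For 4 of the 11 HSC groups and 1 of the 5 MPP groups the other 3 libraries were at the floor, which fixes the ratio near 1 whatever the level of the fourth. Because a library is also a genotype, its level and its label cannot be told apart.

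In HSC the library far below the rest was the one labelled WT for Fancd2 and for Fancm (0 CPM in each), the one labelled IFNAR for Fanca (0.843 CPM) and Top3a (22.3 CPM), and the one labelled DKO for Fancc (5.36 CPM) and Fancl (0.148 CPM). A library far above the rest was that labelled WT for Rad51b (12.4 CPM) and that labelled N5 for Rad51c (11.9 CPM), Palb2 (63.4 CPM), Bard1 (5.58 CPM) and Fancf (0.0652 CPM, only 2 counts and so at the floor).

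In MPP the library labelled IFNAR was far above the rest for Rad54l (178 CPM) and far below for Nbn (43.6 CPM). That labelled DKO was far above for Atm (54.1 CPM) and Bard1 (14.1 CPM), and that labelled N5 for Rmi2 (30.3 CPM).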

How the results depend on the processing

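The 7 genes lower in HSC without overlap remained so under thinning, and 6 of them under DESeq2 size factors and library totals, where Brip1 was lost. Leaving out a library makes a separation easier to reach, although levels were scaled anew each time, and gave 7 to 9 lower genes. Fancc joined the higher side without the HSC library labelled DKO and Slx4 without the MPP library labelled DKO, a range of 0 to 1. DESeq2 called 7 members for HSC against MPP and 3 for Ifnar1 loss, against 0 under every other setting run; over all genes it called 1880, limma-voom 156, the bias-adjusted method 107, the model without a genotype block 207, a filter of 10 CPM in 4 libraries 23 and the fits without 1 library 0, against 2. The smallest adjusted p of a member in edgeR and limma-voom ran from 0.0762 to 0.600. The members' median log2 difference ran from -0.98 (without the HSC library labelled N5) to -0.57 without single libraries, and was -0.36 without the genotype block, where the median of all genes moved from -0.10 to -7.90e-04. Counting only values of 0 gave 21 HSC and 3 MPP values. At the floor of 3 counts, leaving out single libraries gave 16 to 18 HSC and 3 to 5 MPP values, since fewer values were counted. Each group had 1 library, so no difference between libraries of a group could be measured.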
